A study of Mus musculus with 6 samples.

Results

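Pomc-high neurons of the postnatal mouse hypothalamus were compared between P5 and P12, across all measured genes. A cell was counted as a Pomc-high neuron where Pomc made up at least 10 of every 10000 unique molecular identifiers (UMIs, each marking 1 captured transcript) of the cell, and where at least 3 of 6 neuronal genes (Elavl3, Mapt, Snap25, Stmn2, Syt1, Tubb3) had a UMI. This rule took 1572 of the 3909 deposited cells at P5 and 768 of the 3533 at P12, or 2340 of the 13953 cells of the series. The cells came from the offspring of Pomc-TdDsRed/+ males and Pomc-TdDsRed/+ females on the C57BL/6 strain, in which the red fluorescent protein TdDsRed is driven by regulatory sequence of Pomc. Whether single pups carried 1, 2 or no copies of the transgene, and their sex, is not given in the sources used here. The hypothalami of at least 6 pups per age were pooled, digested with papain for 1 h at both ages and sorted for red fluorescence, and both libraries were made with version 3 of the 10x Genomics reagents. The younger library is labelled P5 in its title and stage but P6 in the protocol, and is called P5 here. No agent was given at either age.

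POMC neurons of the arcuate nucleus release peptides that are cut from the precursor proopiomelanocortin, among them α-MSH, which lowers food intake through melanocortin receptors, and the opioid β-endorphin. The cutting needs prohormone convertases and trimming enzymes that work inside dense core granules. In the first postnatal weeks of the mouse these neurons extend axons to their targets, form synapses and become responsive to circulating hormones such as leptin and insulin.

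Each age was 1 library, so that no test between ages was possible, and the cells of a library are not replicates. A level is the summed UMIs of a gene in the Pomc-high neurons of an age, per 10000 of all their UMIs. The 95% intervals are exact Poisson intervals for levels, exact conditional binomial intervals for the ratio of levels and exact Clopper-Pearson intervals for shares of cells, and they cover counting error only. Differences between pools of pups, dissections and sorts cannot be told apart from the difference of age. The 1572 cells of P5 held 41648422 UMIs and the 768 cells of P12 held 23705367.

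The cells were chosen by the measured levels of Pomc and of the 6 neuronal genes, whose values are therefore a description. Pomc (chromosome 12, 3954951 to 3960642 in GRCm38) had 183635 UMIs at P5 and 103494 at P12, and its summed level was 44.1 at P5 and 43.7 at P12 (ratio 0.990, 95% interval 0.983 to 0.998). The median cell had a level of 40.5 at P5 and 39.5 at P12, and the middle range of cells reached from 25.2 to 60.8 at P5 and from 22.9 to 60.7 at P12. The member nearest to the limit had 10.03 at P5 and 10.05 at P12, and the nearest neuron below it had 9.964 and 9.937. All 6 neuronal genes had a UMI in 44.4% of the cells at P5 and in 53.4% at P12. Of the neuronal genes Snap25 was 1.59-fold higher at P12 (not past the fold used below after centring), Tubb3, Mapt and Stmn2 were at 0.434, 0.454 and 0.660 times their level at P5, and Syt1 and Elavl3 lay within the fold. The rule sets only a lower limit, and the 95th percentile of cells was at 91.5 at P5 and 103 at P12.

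**Figure D1:**
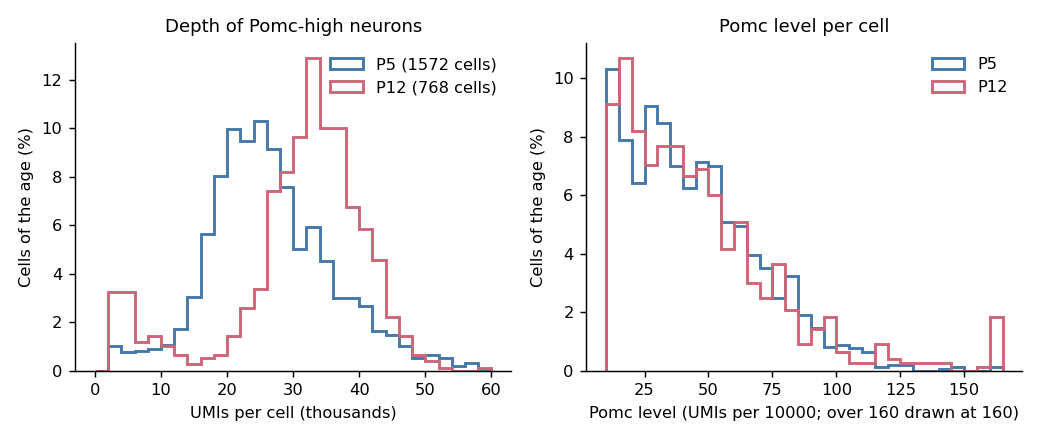
Share of the Pomc-high neurons of each age by their total UMIs (left, per cell) and by their Pomc level (right, UMIs per 10000, with cells over 160 drawn at 160). The median cell held 25433 UMIs at P5 and 32863.5 at P12, a separate group of shallow cells is seen at P12, and the Pomc levels of both ages cover the same range above the limit of 10.

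Depth and the UMIs of other cell types differed between the libraries. The median cell held 25433 UMIs and 5765 genes at P5 and 32863.5 UMIs and 6786.5 genes at P12, and 55 cells (3.50%) at P5 and 70 cells (9.11%) at P12 had under 10000 UMIs. Those 70 cells had a mean Pomc level of 76.5, against 44.5 in the deeper cells of P12. The summed level of 12 microglia markers was 2.28 at P5 and 5.95 at P12 (39.4 in the 70 shallow cells), and at least 3 of these markers had a UMI in 226 cells at P5 and in 538 at P12. No marker of that list was at 0. Microglia cells of the same libraries, which are defined as cells with at least 6 of the 12 markers and fewer than 3 neuronal genes, numbered 282 at P5 and 1138 at P12, and their level of a gene is given as background. At P5 and P12 the astrocyte list summed to 1.19 and 2.34, the oligodendrocyte list to 0.886 and 0.722, the tanycyte and ependyma list to 0.155 and 0.123, the macrophage list to 0.00888 and 0.192, the pituitary list to 0.189 and 0.0561, the blood list to 0.00504 and 0.0253 and the vascular and leptomeningeal list to 0.0346 and 0.0645. Prl was at 0 at both ages. The libraries shared 1 cell barcode, and no barcode of a Pomc-high neuron was shared.

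Of 31054 listed genes, 6738 were tested, those with a mean level of both ages of at least 0.2 and UMIs in at least 5% of the pooled cells of both ages. A gene was counted as higher or lower where its log2 ratio, taken after adding 0.1 to both levels, passed 1.5-fold. At P12, 655 of the 6738 genes (9.72%) were at least 1.5-fold higher and 250 (3.71%) at least 1.5-fold lower, and 5833 lay between. The counts of each list below are to be read beside these shares. At least 2-fold differences were found for 121 genes higher (1.80%) and 49 lower (0.727%). The higher genes held 4.18% of all UMIs at P5 and 7.87% at P12, and the lower genes 11.3% and 5.68%. The median log2 ratio of the genes tested was 0.10. With every ratio taken relative to this median, 423 genes were higher and 411 lower, so that the higher genes were 72.4% of the genes past the fold without this centring and 50.7% with it. The balance between higher and lower genes therefore rests on the scaling.

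**Figure D2:**
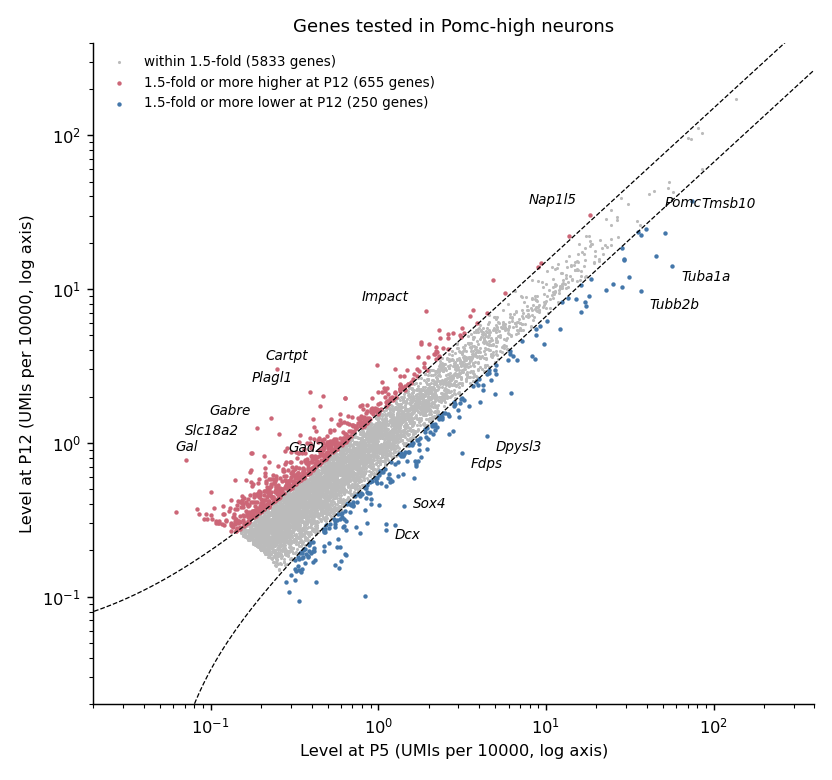
Level of each of the 6738 genes tested in Pomc-high neurons at P5 (horizontal) and P12 (vertical), in UMIs per 10000 on log axes. The dashed lines mark 1.5-fold with 0.1 added to both levels, and Cartpt and Gal lie farthest above them while Tuba1a, Tubb2b, Dpysl3 and Dcx lie below.

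Cartpt (chromosome 13, 99898489 to 99901091), the precursor of CART peptides that POMC neurons use as a second anorexigenic signal, had a level of 0.248 at P5 (95% interval 0.233 to 0.264) and 3.01 at P12 (2.94 to 3.08). This was a 12.1-fold difference, with a log2 ratio of 3.16, or 2.05 in cells of 10000 to 30000 UMIs. Its background in microglia cells was 0.00328 at P5 and 0.0820 at P12. Both the number of cells with Cartpt and the level per cell were higher at P12. After each cell was thinned to 5000 UMIs, 9.36% of 1549 cells at P5 (95% interval 7.96 to 10.9%) and 34.5% of 722 cells at P12 (31.0 to 38.1%) had a Cartpt UMI, against 0.362% and 3.86% of microglia cells. Without thinning the shares were 26.5% and 58.5%, at the median depths given above. A level of at least 1 was reached by 108 of 1572 cells (6.87%) at P5 and by 272 of 768 (35.4%) at P12. The 157 cells with the most Cartpt held 72.1% of its UMIs at P5, and the 76 with the most held 65.2% at P12. Cartpt was thus unevenly spread at both ages, and at P12 the median cell still had only 0.308.

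The sequence before the start of Cartpt is shown because this gene led the comparison, together with those of 3 further genes that are described here and were higher at P12, Pcsk1, Fam174a and Purb. All 4 hold the palindrome TGACGTCA, the letters of the cyclic AMP response element, in the 250 bases before the RefSeq start (GRCm38.p6). They were chosen for that match after their values were seen. Syn1, Mapk10 and Peg3, also higher, and Tubb2a and Dusp1, which were lower, hold it too within the 250 bases. The match is printed in capitals within the last 150 bases before the start, read 5′ to 3′ on the strand of the gene.
Cartpt (chr13:99900684-99900833, minus strand): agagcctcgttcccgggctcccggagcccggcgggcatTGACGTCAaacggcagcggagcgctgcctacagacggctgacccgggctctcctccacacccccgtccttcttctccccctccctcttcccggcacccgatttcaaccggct
Pcsk1 (chr13:75089707-75089856, plus strand): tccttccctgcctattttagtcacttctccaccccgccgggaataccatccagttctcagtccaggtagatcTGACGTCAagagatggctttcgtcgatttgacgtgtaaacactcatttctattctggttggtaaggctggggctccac
Fam174a (chr1:95313478-95313627, plus strand): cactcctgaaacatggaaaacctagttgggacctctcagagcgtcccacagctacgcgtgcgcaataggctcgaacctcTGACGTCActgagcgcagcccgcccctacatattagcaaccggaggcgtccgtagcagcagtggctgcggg
Purb (chr11:6476077-6476226, minus strand): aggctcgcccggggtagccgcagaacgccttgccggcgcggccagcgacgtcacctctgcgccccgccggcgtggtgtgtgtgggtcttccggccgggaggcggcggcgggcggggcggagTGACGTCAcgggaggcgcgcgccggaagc
The motif starts 112 bases before the RefSeq start in Cartpt, 78 in Pcsk1, 71 in Fam174a and 29 in Purb. By the GENCODE position of Cartpt given above, its printed sequence lies within the gene and not before it. Of the 27025 genes with such a sequence in the RefSeq table, 478 (1.77%) hold it within these 250 bases. Among the 5341 of the 6738 tested genes that are in the table the share was higher, 193 genes or 3.61%. Since many tested genes are missing from it, nothing is drawn from the shares of higher and lower genes. A match is a description of the letters and not of a bound site.

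Of 33 neuropeptide genes on the list, Pomc not among them, 7 passed the limit on low values. Cartpt, Gal and Pdyn were higher, beside 9.72% of all genes, and none was lower. The median log2 ratio was 0.23 for the 7 beside 0.10 for all genes tested. Gal (chosen after its values were seen), the precursor of galanin, had a level of 0.0711 at P5 and 0.776 at P12, which was 10.9-fold higher (9.65 to 12.4), and thinned cells with a Gal UMI made up 3.03% at P5 and 21.6% at P12. Pdyn, the precursor of dynorphins, was at 0.297 and 0.504 (1.70-fold). It was no longer past the fold after centring or with 0.5 added to both levels. The same held as a mean over cells, in thinned cells and in cells of 10000 to 30000 UMIs. Tac2, the precursor of neurokinin B, was at 0.624 at P5 and 0.389 at P12 (log2 ratio -0.57, within the fold). Its direction was not stable, with a log2 ratio of -0.67, and so past the fold, after centring, and of 1.14 in cells of 10000 to 30000 UMIs. It had few strong cells at either age, with 89.2% of its UMIs in 157 cells at P5 and 80.8% in 76 cells at P12. Npy and Agrp, which mark a neighbouring class of arcuate neurons that stimulate feeding, were under the limit on low values. Npy had 0.0867 at P5 and 0.229 at P12 and Agrp 0.0132 and 0.0928, whereas microglia cells had 0.0296 and 0.359 of Npy and 0.00985 and 0.123 of Agrp. At P12 the summed levels of both in Pomc-high neurons were therefore below the background. Single cells were above it, with a level of at least 5 at P12 in 6 cells for Npy (maximum 61.9) and in 4 for Agrp (maximum 26.1).

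Genes of fast transmission differed among themselves. On the list of 14, 5 were tested, of which Slc18a2 and Gad2 were higher (beside 9.72% of all genes) and none was lower. The median log2 ratio of the 5 was 0.46. Slc18a2 (chromosome 19, 59260896 to 59296012), which encodes the vesicular monoamine transporter VMAT2, was at 0.190 at P5 and 1.25 at P12 (6.59-fold, 6.09 to 7.13). Gad2 (chromosome 2, 22622205 to 22693874), an enzyme that makes GABA, was at 0.256 and 1.14 (4.46-fold, 4.16 to 4.80). Gad1, the other enzyme for GABA, was at 0.605 and 0.870 (1.44-fold), and Slc17a6, which loads glutamate into vesicles (VGLUT2), at 0.661 and 0.830 (1.26-fold). Slc32a1, the usual vesicular transporter of GABA, was under the limit on low values with 0.0540 and 0.0523. In thinned cells a Slc18a2 UMI was found in 10.0% of cells at P5 and 37.1% at P12, a Gad2 UMI in 10.1% and 36.1%, a Gad1 UMI in 25.8% and 30.3% and a Slc17a6 UMI in 22.9% and 28.8%. The intervals of these shares were 20.8 to 25.1% at P5 and 25.5 to 32.3% at P12 for Slc17a6. For Gad1 they were 23.7 to 28.1% and 27.0 to 33.8%. They cover counting error within a single library per age, so their overlap or lack of it is no test between ages. The levels of Gad1 and Slc17a6 lay within the fold (log2 ratios 0.46 and 0.29).

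Among thinned cells of P12, 112 of the 268 with Slc18a2 also had Gad2 (41.8%), against 32.8% of those without Slc18a2. At P5 the shares were 11.6% and 9.97%. Slc17a6 and Gad2 were found together in 67 of the 208 thinned cells with Slc17a6 at P12 (32.2%, against 37.7% of the others) and in 38 of 355 at P5 (10.7%). Th, the first enzyme of dopamine synthesis, had a level of 0.0187 at P5 and 0.0181 at P12. These shares are descriptions of cells of 1 library each.

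**Figure D3:**
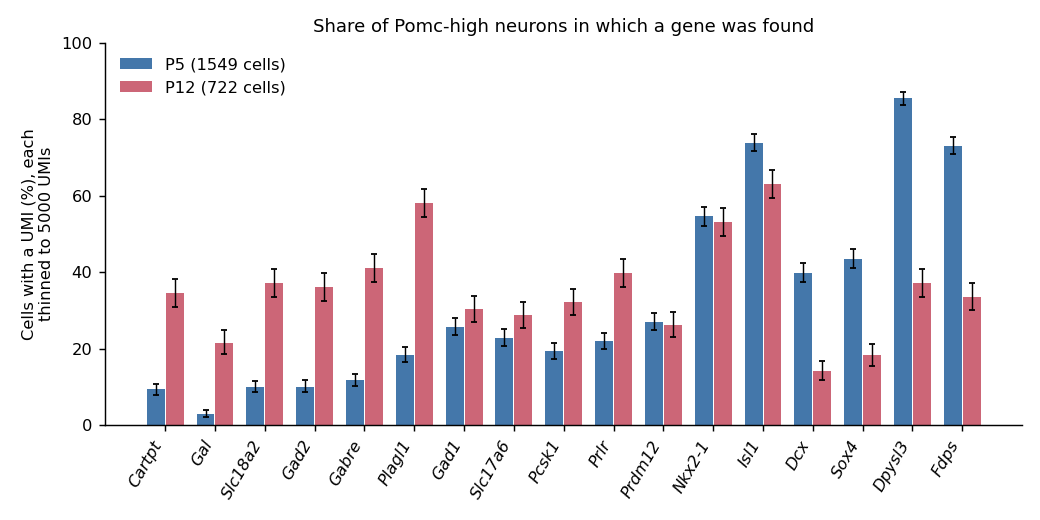
Share of Pomc-high neurons with at least 1 UMI of a gene after each cell was thinned to 5000 UMIs, with exact 95% binomial intervals as bars, for 1549 cells at P5 and 722 at P12. Cartpt went from 9.36% to 34.5% and Plagl1 from 18.3% to 58.2%, while Dcx was at 39.8% at P5 and 14.1% at P12 and Prdm12 at 27.0% and 26.2%.

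The machinery that turns the precursor into peptides was higher in part. Of 16 listed processing genes 10 were tested, of which Pcsk1, Pcsk2 and Pam were higher and Nln lower (median log2 ratio -0.03). Of all genes 9.72% were higher and 3.71% lower. Pcsk1 (chromosome 13, 75089826 to 75134861), the convertase that makes the first cuts in proopiomelanocortin, was at 0.397 at P5 and 0.823 at P12 (2.08-fold, 1.94 to 2.22). Pcsk2, which cuts further towards α-MSH and β-endorphin, was at 0.792 and 1.37 (1.72-fold, 1.64 to 1.81), and Pam, which amidates peptide ends, at 1.13 and 2.28 (2.02-fold, 1.95 to 2.11). Cpe, the carboxypeptidase that trims the cut ends, was at 4.54 and 4.39, and Pcsk1n, the precursor of the Pcsk1 inhibitor proSAAS, at 0.924 times its P5 level of 54.1. Nln, a peptidase, was at 0.412 and 0.208. With 0.5 added to both levels only Pam was past the fold, and after centring 3 were higher and 3 lower. Pcsk2 was within the fold as a mean over cells and in thinned cells too. Of the 16 genes of granule cargo 15 were tested, 2 of them higher and 1 lower. Ptprn, a membrane protein of the granules, was at 1.79 and 4.36 (2.43-fold), Vgf (chosen after its values were seen), another granule precursor, at 2.31 and 5.41 (2.34-fold), and Resp18 at 14.1 at both ages. Syt7, a calcium sensor of release, was at 0.476 and 0.213.

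Of 29 listed receptors and signalling genes for circulating hormones 18 were tested, of which 8 were higher (among them Prlr, Esr1, Nr3c1, Ghr, Irs4, Stat3 and Socs3) and none lower, beside 9.72% of all genes higher, with a median log2 ratio of 0.40. Stat3 (chromosome 11, 100885098 to 100939540), which carries the leptin signal to the nucleus, was at 0.175 at P5 and 0.853 at P12 (4.88-fold, 4.48 to 5.31), although its background was 0.690 and 0.971. The next 4 genes were chosen after their values were seen. Prlr, for prolactin, was at 0.476 and 1.06 (2.23-fold), Esr1, for oestrogens, at 0.192 and 0.471 (2.45-fold) and Ghr, for growth hormone, at 0.153 and 0.448 (2.92-fold). The background of these 3 receptors reached 0.0546 at most. Irs4, an adaptor of insulin receptors, was at 2.35 and 4.79 (2.04-fold, but within the fold in cells of 10000 to 30000 UMIs). Igf1r was at 0.326 and 0.205, and Thra, a thyroid hormone receptor, at 6.05 and 5.78.

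Lepr, the leptin receptor, had 82 UMIs at P5 and 111 at P12 (levels 0.0197 and 0.0468, ratio 2.38, 1.77 to 3.20) and was under the limit on low values. Its thinned share was 1.23% at P5 and 1.80% at P12. Insr, the insulin receptor, was 1.38-fold higher (1.25 to 1.53, within the fold), and the melanocortin receptor Mc3r at 0.0415 and 0.0658. With 0.5 added to both levels 5 of the 18 tested genes of the hormone list were higher. Without cells that had UMIs of at least 3 microglia markers 8 of 18 were higher and 1 lower.

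Among receptors for neurotransmitters and peptides, 5 of the 12 tested of 36 listed were higher (among them Mrap2, Prokr1, Npy2r and Adcyap1r1), beside 9.72% of all genes. None was lower (median log2 ratio of the 12, 0.49). With 0.5 added only 1 was higher. Npy2r, through which neuropeptide Y and peptide YY act, was at 0.390 and 1.00 (2.57-fold, 2.42 to 2.74). Prokr1 and Mrap2 (both chosen after their values were seen), a prokineticin receptor and an accessory protein of melanocortin and other receptors, were at 0.219 and 0.459 (2.09-fold) and at 0.331 and 0.637 (1.93-fold). Gabbr1, a subunit of the metabotropic GABA receptor, was at 3.71 and 4.90, and the cannabinoid receptor Cnr1 at 0.241 and 0.219.

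Subunits of the GABA-A and glycine receptors, which carry chloride, were higher in 6 of the 13 tested of 19 listed (among them Gabrb1, Gabrg1, Gabre, Gabrq and Glrb). This stood beside 9.72% of all genes higher, and none of the 13 was lower (median log2 ratio 0.43). After centring 5 were higher, and in cells of 10000 to 30000 UMIs 4. Gabrb1 was within the fold in those cells and with 0.5 added to both levels. Gabre (chromosome X, 72255999 to 72274803), which encodes the ε subunit, was at 0.229 at P5 and 1.44 at P12 (6.27-fold, 5.84 to 6.75), and its thinned share was 11.7% and 41.0%. The α subunit gene Gabra2 was at 0.346 and 0.500 (1.45-fold) and Gabra5 at 1.63 and 1.36. Of ionotropic glutamate receptors 2 of the 18 tested of 23 listed were higher (Gria3 and Grin1), a share near the 9.72% of all genes, and none was lower. Gria3 was at 0.224 and 0.503 (2.24-fold). The NMDA receptor subunits Grin2a and Grin2b, whose balance is known to shift with age in cortex, were at 0.448 and 0.349 and at 1.59 and 1.45.

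Slc12a2, the chloride importer NKCC1, was at 0.177 at P5 and 0.347 at P12 (1.95-fold, 1.77 to 2.16), with a background of 1.48 and 1.05, and Slc12a5, the exporter KCC2, at 2.44 and 2.08 (0.856 times). Atp1b1, a subunit of the sodium pump, was at 9.41 and 14.7 (1.56-fold), and neither it nor Slc12a2 was past the fold after centring. Of 44 ion channel genes 30 were tested, 7 of which were higher (among them Scn9a, Scn2b, Kcnc2, Kcnip4 and Cacna2d1), beside 9.72% of all genes, and none lower. Scn2b, a β subunit of sodium channels, was at 0.177 and 0.858 (4.84-fold, 4.45 to 5.27). Scn3b, another β subunit, was at 0.981 and 0.644. With 0.5 added 3 of the channel genes were higher.

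Genes of immature neurons and of axon growth were the group with the most genes lower at P12. Of 29 listed, 28 were tested, of which 18 were lower (beside 3.71% of all genes) and none higher, with a median log2 ratio of -1.08. Their summed level was 524 at P5 and 269 at P12. Tuba1a (chromosome 15, 98949837 to 98953703), the α-tubulin of growing neurites, was at 56.8 at P5 and 14.1 at P12 (0.249 times, 0.246 to 0.252). The β-tubulins Tubb2b (chromosome 13, 34126748 to 34130466), Tubb2a and Tubb5 were at 36.8 and 9.76, at 31.5 and 11.9 and at 28.6 and 10.3. Tubulin genes have near-identical copies among which reads can be split in counting, so that their single values are uncertain. Dpysl3 (chromosome 18, 43320984 to 43438286), a protein of the growth cone, was at 4.46 and 1.10 (0.247 times), and Dcx, which binds microtubules in migrating neurons, at 1.11 and 0.295 (0.266 times). Sox4, a transcription factor of young neurons, was at 1.42 and 0.389 (0.274 times). Stmn1 and Stmn4, which take tubulin out of microtubules, were at 45.2 and 16.4 and at 6.16 and 2.11, and Tmsb10, which binds actin monomers, at 74.8 and 37.4.

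The lower sums were matched by the median cells. The median level per cell of Tuba1a was 52.3 at P5 and 11.9 at P12, and that of Dcx 0.985 and 0.260. After thinning, the share of cells with a UMI was 39.8% and 14.1% for Dcx, 43.5% and 18.3% for Sox4 and 85.5% and 37.1% for Dpysl3. Cxadr, an adhesion protein, and Ddah2, an enzyme of methylarginine breakdown, were among the 12 genes with the smallest ratios too, at 1.26 and 0.294 and at 1.12 and 0.270. Microglia markers were higher at P12, and with the cells that had UMIs of at least 3 of these markers left out (1346 cells at P5 and 230 at P12, summed marker level 0.412 and 0.717) 18 of the 27 tested genes of the list were lower and none higher.

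Of 17 tested neurofilament and axon genes, which are known to come with maturity, 6 were higher (Nefh, Tuba4a, Map1a, Cntnap1, Thy1 and Mapk10), beside 9.72% of all genes. Only Tubb3, which chose the cells, was lower, and the median log2 ratio of the 17 was 0.36. Cntnap1, a protein of the axon beside the node, was at 0.101 and 0.479 (4.73-fold, 4.23 to 5.30). Of 29 genes of vesicle release 24 were tested, 5 being higher (among them Syn1, Vamp2 and Unc13a) and 1 lower, beside 9.72% and 3.71% of all genes. Unc13a, which primes vesicles, was at 0.404 and 0.784 (1.94-fold), and Stx1a at 1.04 and 0.552, with Rab3a at 8.68 and 8.52. After centring 3 of the 24 were higher and 2 lower. In axon guidance 1 of 18 tested genes was higher, Unc5c, a netrin receptor (0.295 and 0.532, not past the fold after centring), and none lower.

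**Figure D4:**
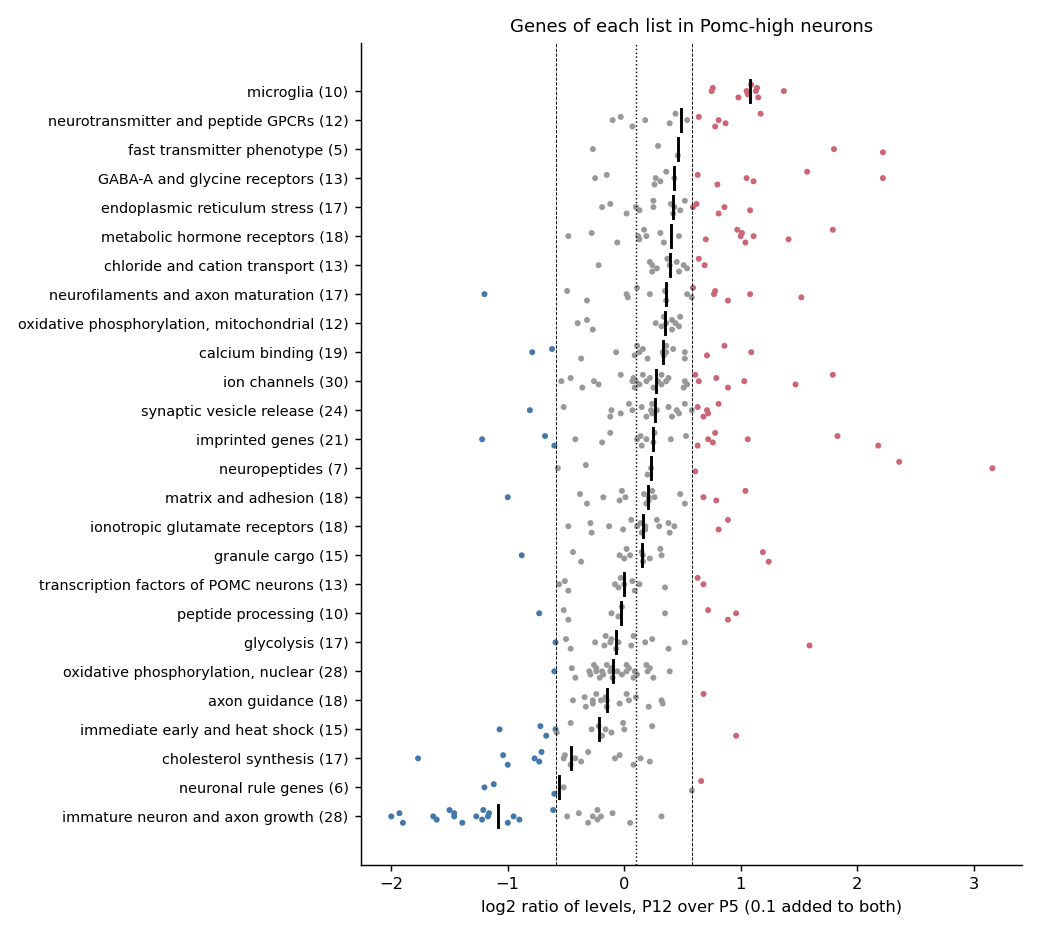
Log2 ratio of levels (P12 over P5, 0.1 added to both) of each tested gene, by list, for the 26 lists with at least 5 genes tested, with the number tested in brackets. Black bars are list medians, dashed lines 1.5-fold and the dotted line the median of all genes tested (0.10), and the list of immature neurons lies lowest with a median of -1.08.

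Of 19 listed genes of cholesterol synthesis 17 were tested, 6 of them lower (among them Mvd, Idi1, Fdps, Nsdhl and Acat2; beside 3.71% of all genes lower) and none higher, with a median log2 ratio of -0.46. Fdps (chromosome 3, 89093588 to 89101959), which makes farnesyl pyrophosphate, was at 3.16 at P5 and 0.854 at P12 (0.270 times, 0.258 to 0.283). Hmgcs1, which makes HMG-CoA early in the pathway, was at 3.67 and 2.54 (0.692 times, within the fold). Without cells that had UMIs of at least 3 microglia markers the count was again 6 of 17, with 0.5 added to both levels it was 3, and after centring 8.

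The sequences before the starts of Mvd, Idi1 and Nsdhl are shown because these genes of 1 pathway were lower and share a motif. Each holds the letters CCAAT, or ATTGG on the other strand, at 2 places in the last 150 bases (capitals). They were chosen after their values and matches were seen.
Mvd (chr8:122443423-122443572, minus strand): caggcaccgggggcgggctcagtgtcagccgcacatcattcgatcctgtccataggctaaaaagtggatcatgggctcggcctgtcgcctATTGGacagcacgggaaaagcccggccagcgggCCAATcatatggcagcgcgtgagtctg
Idi1 (chr13:8885456-8885605, plus strand): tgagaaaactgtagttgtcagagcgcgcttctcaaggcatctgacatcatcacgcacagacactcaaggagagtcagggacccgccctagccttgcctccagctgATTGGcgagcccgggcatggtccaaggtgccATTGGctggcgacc
Nsdhl (chrX:72918371-72918520, plus strand): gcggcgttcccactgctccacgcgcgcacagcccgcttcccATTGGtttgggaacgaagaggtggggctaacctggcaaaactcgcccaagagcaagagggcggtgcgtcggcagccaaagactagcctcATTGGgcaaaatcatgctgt
At least 1 match in 250 bases is common, being found for 10133 (37.5%) of the 27025 genes in the table. Of the 17 tested genes of the pathway 11 are in the table, too few for a share to be given. The motif is also before Hmgcs1 and 6 other genes of the pathway that lay within the fold, but not before Acat2. The other motifs searched, on both strands of the same 250 bases, were TCACNCCAC (found for 1.22% of the genes in the table), GGGCGG (35.4%), CACGTG (6.86%) and TATAAA (14.3%). Of these GGGCGG was found before all 11 genes of the pathway in the table and before 67.7% of the tested genes in it, and TCACNCCAC, the sterol regulatory element, before Hmgcs1 and none of the 4 lower genes in the table.

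Of 33 listed transcription factors of these neurons 13 were tested, 2 of them higher and none lower, beside 9.72% and 3.71% of all genes. The median log2 ratio of the 13 was 0.00. Isl1, Nkx2-1 and Prdm12, which are needed for Pomc to be switched on, were at 2.99 and 2.11 (0.705 times, 0.682 to 0.729), at 1.57 and 1.48 (0.940 times, 0.902 to 0.980) and at 0.711 and 0.697 (0.980 times, 0.922 to 1.04). Tbx3 was at 3.11 and 3.26 (1.05-fold, 1.02 to 1.08) and Six6 at 1.66 and 1.09 (0.657 times). Sox3 and Peg3 were past the fold, 1.72-fold and 1.56-fold higher, but not after centring, when 3 of the 13 were lower. Without centring, Isl1, Nkx2-1 and Six6 thus lay below their P5 levels by more than counting error, and Tbx3 lay above its P5 level. All of them were within the fold once 0.1 was added to the levels (log2 ratios -0.48 for Isl1 and -0.56 for Six6). The interval for Prdm12, also without centring, included no difference. Since the median log2 ratio of all genes tested was 0.10, the readings for Tbx3 and Prdm12 rest on the scaling.

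Of 27 listed imprinted genes, of which only the copy from 1 parent is active, 21 were tested. Of the 21, 7 were higher (Mirg, Peg3, Nap1l5, Grb10, Plagl1, Impact and Asb4) and 3 lower (Ndn, Nnat and Sgce), beside 9.72% and 3.71% of all genes. Plagl1 (chromosome 10, 13060504 to 13131694), a zinc finger transcription factor, was at 0.391 at P5 and 2.13 at P12 (5.45-fold, 5.16 to 5.77), and its median level per cell was 0.298 and 1.86. Impact (chromosome 18, 12955852 to 12992950), which restrains the kinase GCN2, was at 1.94 and 7.15 (3.69-fold, 3.60 to 3.79). Nnat was at 25.2 and 10.8 (0.427 times), and Meg3, a long noncoding RNA, at 57.4 and 42.8. The summed level of the list was 186 at P5 and 185 at P12. Without cells that had UMIs of at least 3 microglia markers 8 were higher and 1 lower. As a mean over cells 6 were higher and 2 lower, and in cells of 10000 to 30000 UMIs 4 and 1. Asb4, Peg3 and Ndn were within the fold in the cells of 10000 to 30000 UMIs.

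Fam174a was at 0.469 and 2.01 (4.28-fold, background 0.943 and 1.18), Rasgrf1, an exchange factor for Ras, at 0.450 and 1.74 (3.87-fold), Purb, which binds single-stranded nucleic acid, at 0.986 and 3.23 (3.27-fold, background 1.24 and 1.43) and Eno2, the neuronal enolase of glycolysis, at 0.409 and 1.43 (3.49-fold). Calbindin and calretinin, calcium buffers that are often used to sort neurons into types, differed in opposite directions. Calb1 (chosen after its values were seen) was at 2.81 and 5.18 (1.84-fold, but within the fold in cells of 10000 to 30000 UMIs). Calb2 was at 4.19 and 2.38 (0.569 times). Of 23 calcium binding genes 19 were tested, with 3 higher and 2 lower, beside 9.72% and 3.71% of all genes.

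Pomc-low neurons of the same libraries, which met the neuronal rule with Pomc under 10 per 10000, were set beside the Pomc-high ones. Pomc-high neurons were not filtered by microglia markers, and 33 of them at P5 and 120 at P12 had UMIs of at least 6 of the 12. Pomc-low neurons with at least 6 of the 12 were left out, a choice made after seeing the data. This left 1883 of 2010 Pomc-low cells at P5 and 686 of 1460 at P12. Of the 602 higher genes with a mean level of at least 0.2 in these cells too, 355 (59.0%) were also at least 1.5-fold higher there, and of the 248 lower ones 114 (46.0%) were also lower, beside 8.08% and 2.36% of the 6556 genes with both levels. Tuba1a was at 63.8 and 21.1 in Pomc-low neurons (log2 ratio -1.59) and Impact at 1.52 and 5.21 (1.71, beside 1.83). For Cartpt the log2 ratio was 2.17 in Pomc-low neurons beside 3.16, for Gal 0.45 beside 2.36, for Slc18a2 0.73 beside 2.22 and for Gad2 1.64 beside 1.80. With 1 library per age the difference between these ratios could not be tested, and a different makeup of the Pomc-low cells at the ages cannot be told apart from a difference within them.

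**Figure D5:**
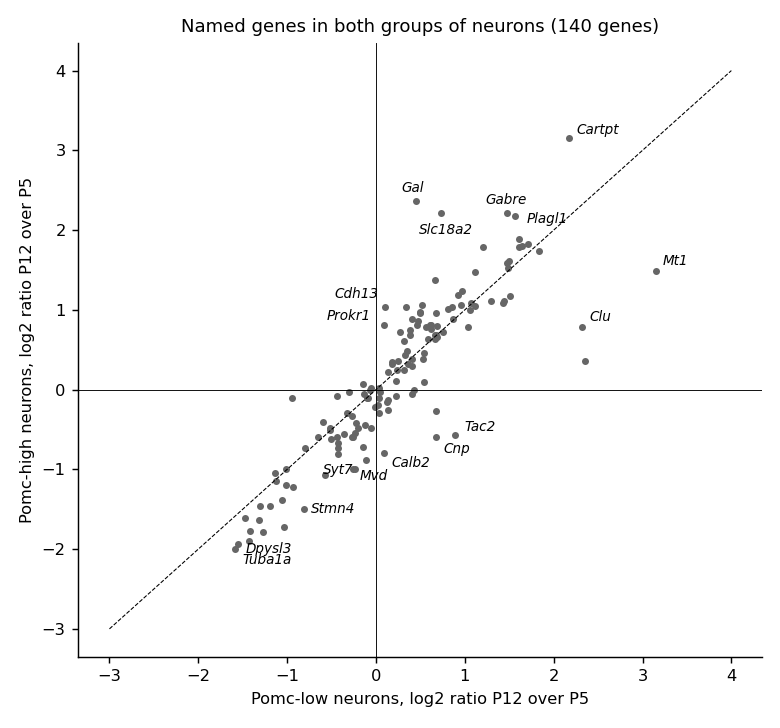
Log2 ratio of levels (P12 over P5, 0.1 added) of 140 named genes in Pomc-low neurons without cells of 6 or more microglia markers (horizontal) and in Pomc-high neurons (vertical), with a dashed line of equal ratios. Cartpt, Gal and Slc18a2 lie above the line with 3.16, 2.36 and 2.22 in Pomc-high neurons, and Mt1 and Clu lie to the right with 3.15 and 2.32 in Pomc-low neurons.

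All 10 tested microglia markers were higher in Pomc-high neurons at P12, with a median log2 ratio of 1.08. C1qa was at 0.282 and 0.745 and P2ry12 at 0.0826 and 0.373, against 47.4 and 47.1 and 13.9 and 20.4 in microglia cells. Their part in the other results was tested only by leaving cells out. Without cells that had UMIs of at least 3 of these markers 654 genes were higher and 233 lower, and 571 and 207 of them were among those above. Of the 90 named genes past the fold, 83 were again past it, among them Cartpt, Slc18a2, Gad2, Plagl1 and Tuba1a. The other 7, among them Calm2, Cnp, Ndn, P2ry12, Pfkp and Trem2, were then within the fold without a change of direction.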

How the data were processed

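The authors sequenced 10x Genomics 3′ libraries of sorted cells, aligned and counted reads with Cell Ranger (versions 2.2.0 and 3.0.0 in the submitters' processing notes, which also name Seurat 3.0 and the build mm10), removed cells by genes, UMIs and mitochondrial and hemoglobin share, kept cells with a Pomc UMI and deposited raw UMI counts per gene and cell. Counts were used as deposited. Library totals were 81593741 UMIs at P5 and 61869340 at P12. The members, gene lists and alternatives were chosen with earlier results of these data known.

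UMIs were summed over the Pomc-high neurons of each library with Python 3.11.15, NumPy 2.4.6 and SciPy 1.17.1. Genes were named by a rule: the 12 largest ratios each way among tested genes with a mean level of at least 0.5, without Pomc and the neuronal genes, and from each list the largest and smallest ratio, the highest level and its defining genes. List members named only in a count, genes said to be chosen after their values were seen, the neuronal genes, Npy, Agrp, Th, Prl and C1qa fall outside it. Doublets were kept in the main values, and Scrublet in Scanpy 1.11.5 called 171 cells at P5 and 102 at P12. Cells were thinned to 5000 UMIs without replacement, which left out 23 and 46. Functions were tested on simulated data. Values of some genes are not reported here. Alternatives are named below. Gene positions are from GENCODE M21 (GRCm38) and sequences from RefSeq (GRCm38.p6).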

Additional observations from a re-analysis of the deposited data

Results flagged for a closer look

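Cnp, which is listed as a gene of oligodendrocytes and is also found in other cells, was lower at P12 in Pomc-high neurons (0.354 at P5 and 0.202 at P12, log2 ratio -0.59) and higher in Pomc-low neurons (0.328 and 0.585, log2 ratio 0.68, or 0.84 with cells of 6 or more microglia markers kept). It was the only gene past 1.5-fold in opposite directions among the 6556 genes with a mean level of at least 0.2 in both groups. The difference between the groups was not tested, since each age is 1 library, and in Pomc-high neurons Cnp lay just inside the fold, with a log2 ratio of -0.57, both when cells weighed equally and when cells with UMIs of 3 or more microglia markers were left out. Its log2 ratio was -0.43 in cells of 10000 to 30000 UMIs, and it was within the fold with 0.5 added to both levels too.

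No comparison above uses the RFP row of the count tables. What sequence it stands for is not given in the sources used here. It had 16 UMIs in 16 of the 1572 Pomc-high neurons at P5 and 9 UMIs in 9 of the 768 at P12, a level of 0.00384 and 0.00380. Microglia cells had 0 UMIs of it at both ages, and Pomc-low neurons 9 and 2. Cells were sorted for a red fluorescent protein, and whether this entry stands for its transcript was not tested.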

How the results depend on the processing

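No paired analysis was possible because each age is 1 library, and for the same reason no library could be left out. The 655 genes higher and 250 lower at P12 were 423 and 411 after centring on the median ratio, 161 and 120 among the 1936 genes with a mean level of at least 1, and 150 and 100 with 0.5 added to both levels, where fewer genes were tested or low genes were drawn together. In the other 8 alternatives (including cells of at least 10000 UMIs, chosen after seeing the data) the counts ranged from 543 to 861 and from 206 to 305. The Pomc level at P12 over P5, 0.990 in the report, was 0.922 after centring, 1.06 as a mean over cells and in cells of 10000 to 30000 UMIs, 1.02 with a Pomc limit of 20, 1.04 in thinned cells, 0.962 without the highest Scrublet scores, 1.01 without cells with UMIs of 3 or more microglia markers and 0.976 in cells of at least 10000 UMIs, the cause of which was not tested. None of the 90 named genes past the fold turned its direction under any alternative in which it was tested. With 0.5 added 65 kept the fold, in cells of 10000 to 30000 UMIs 75, and in the others at least 83 of 90, or 48 of the 48 tested at a level of at least 1. Lepr, Mc3r and Slc32a1 were under the limit on low values in the main comparison.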

Other observations

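Further groups of genes in Pomc-high neurons were described by their counts. Of 17 tested genes of endoplasmic reticulum stress and folding 5 were higher at P12 (Canx, Sdf2l1, Dnajc3, Ddit3 and Sel1l), beside 9.72% of all genes. None was lower, the median log2 ratio of the 17 was 0.42, and 3 were higher after centring. Sdf2l1, a folding factor, was at 0.223 at P5 and 0.583 at P12, and Calr, a chaperone, at 3.18 and 3.80. The 12 tested messenger RNAs of the mitochondrial genome all lay within the fold, with a median log2 ratio of 0.35 and a summed level of 547 at P5 and 699 at P12, while of the 28 nuclear genes of oxidative phosphorylation 27 lay within it, with a median of -0.10.

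Of 15 tested immediate early and heat shock genes 4 were lower at P12 (Fos, Jun, Junb and Dusp1), beside 3.71% of all genes, and Hsph1 was higher. Jun was at 1.81 and 0.808, and Fos (chosen after its values were seen) at 4.98 and 2.98. In microglia cells Jun was at 13.7 and 9.88 and Fos at 7.22 and 4.04. Among genes of matrix and adhesion 3 of 18 tested were higher and 1 lower, beside 9.72% and 3.71% of all genes. The lower one was Ncan, a proteoglycan of the brain matrix. Cdh13, a cadherin, was at 0.796 and 1.75. Mt1, a metallothionein on the list of hormone response, was at 0.175 and 0.670, and was found in 6.84% and 22.9% of thinned cells. In thinned microglia cells it was found in 81.2% at P5 and 59.8% at P12, and their part in the difference was not tested.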
